A study of Mus musculus with 12 samples.

Results

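The ligation response of carotid arteries lacking fibulin-5 was measured on 6 arrays, chosen by their titles from the 12 arrays of the study: 3 of the partially ligated left common carotid artery (LCA) and 3 of the untouched right common carotid artery (RCA) of knockout (KO) mice. Fibulin-5, the product of Fbln5, is a matrix protein that binds elastin and is needed to assemble elastic fibres. Partial ligation lowers flow in the left carotid and makes it oscillate, which is called disturbed flow, and the question was how an artery without fibulin-5 responds to it. All mice carry the strain label C57Bl/6J, both arteries were taken at day 1 after surgery, and the remaining 6 arrays hold the same arteries of wild type (WT) mice. The KO RCA is the control here, so the knockout is shared by both sides of the comparison. The labels give no deleted exon, age, sex or diet, and are silent on pooling and on whether equal replicate numbers mean a shared mouse. Separate mice for the 3 arrays per group are likewise unstated, so each p-value reflects the spread of these samples, which may be technical.

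Laminar flow over the endothelium keeps the transcription factors KLF2 and KLF4 high, and these maintain nitric oxide production and restrain inflammation and clotting. Disturbed flow lowers both and favours endothelial activation, growth factor and endothelin production and, over time, matrix remodelling by smooth muscle cells and fibroblasts. In an artery without fibulin-5 the wall is stiffer before surgery, because its elastic fibres are fragmented.

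The label of an artery was checked against marker genes, with the 95th percentile of 1506 olfactory and vomeronasal receptor probes (95.7 to 103 on the 6 KO arrays) as a guide to background; a gene that never exceeds it in 1 artery is called at background there. All 6 endothelial markers (Pecam1, Cdh5, Tie1, Egfl7, Cldn5 and Vwf) exceeded this level on all 6 arrays. Of 6 smooth muscle markers Acta2, Tpm2 and Myl9 did so, while Cnn1 exceeded it on 1 array and Myh11 on 4 arrays. Tagln read 96.9 to 118, near this level, beside 849 to 3593 for Pecam1. The share of each wall layer in this RNA was not tested. Of 6 fibroblast markers Dcn, Pi16 and Clec3b exceeded the receptor level on all 6 arrays. The skeletal muscle markers Acta1, Ckm, Myh4 and Tnnt3, the thyroid and parathyroid markers Tg and Pth, and the glial and sympathetic markers Sox10 and Th exceeded it on none. Across genes, arrays of the same side correlated with r from 0.820 to 0.835 in RCA and from 0.862 to 0.882 in LCA, and pairs of an LCA and an RCA array with r from 0.813 to 0.863. Fbln5 was read by 1 probe, from 80.6 to 97.4 on the KO arrays and from 84.9 to 88.0 on the WT arrays, always under the receptor level of its array. The loss of Fbln5 can therefore not be checked here, and the gene was left out of the tests.

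No single gene passed the test between ligated and untouched KO arteries. Among the named genes, Klf2, Klf4 and some endothelial and arterial genes were lower, and Lmo4, Ccn2, Timp1 and single fibroblast, lipid and macrophage genes higher. They are not the top of the data by p: Klf2 ranked 6, but Klf4 45, Ccn2 64 and Gja5 571. Other members of these groups lay the other way. Of 15395 genes tested in limma, 0 (0%) had an adjusted p under 0.05, and the smallest adjusted p was 0.707. At an unadjusted p under 0.05 there were 1066 genes (6.92%), 436 higher in LCA (2.83%) and 630 lower (4.09%). The 3 LCA and 3 RCA values did not overlap for 1298 genes higher (8.43%) and 1762 genes lower (11.4%), together 19.9%. These shares are the background against which counts within gene lists are read below. A list with 0 or 1 such member in a direction lies near it and is not read as a result. The lists were chosen with earlier results of these data known, so a count above its share is a description and not a test. Of all genes 48.2% lay above 0, and the median difference was -0.01; list medians below depend on the scale, since subtracting a background moved 19 of 31 of them by more than the spread between replicates. The balance of directions depended on the scaling: 436 of the 1066 genes (40.9%) were higher, against 677 higher and 348 lower (66% higher) when a background was subtracted from each array. Genes near background carried many of the lower values, since of the 3849 dimmest genes by mean intensity 110 were higher and 291 lower, while of the 3849 brightest 110 were higher and 92 lower. Receptor levels were 102.9, 99.2 and 102.6 on the RCA arrays and 98.7, 101.6 and 95.7 on the LCA arrays, and their part in that balance was not tested. Differences below are LCA minus RCA in log2 units, ± the standard error (SE) of the limma fit over all 12 arrays. Because none passed, they are given as values.

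**Figure D1:**
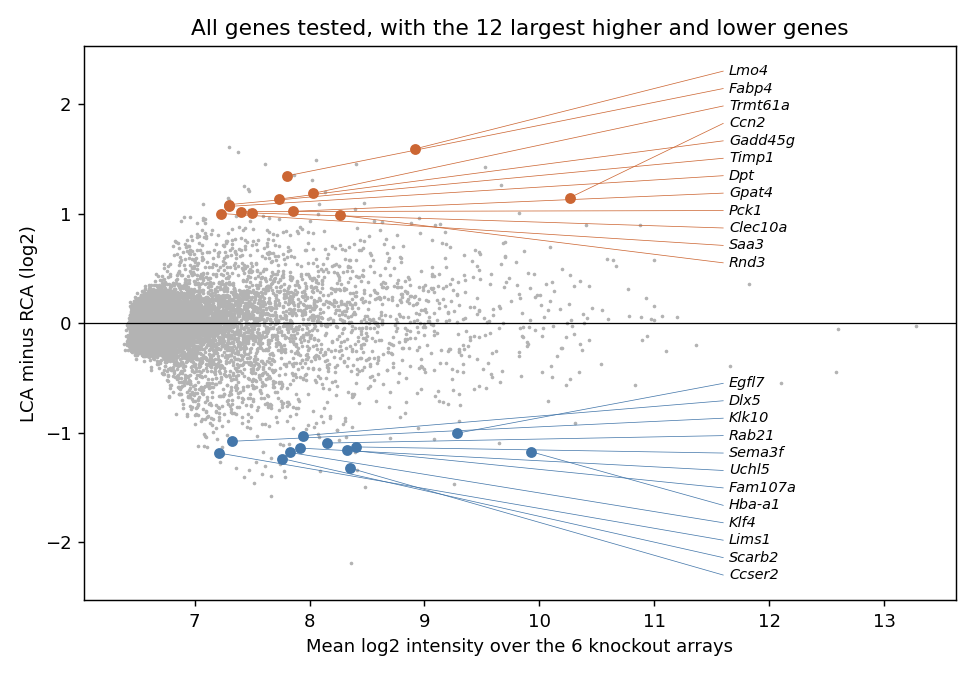
Log2 difference between LCA and RCA (vertical axis) against the mean log2 intensity over the 6 knockout arrays (horizontal axis) for all 15395 genes tested, grey points. Coloured points with names are the 12 genes with the largest higher and lower values among those that did not overlap, from 1.59 for Lmo4 to -1.32 for Ccser2.

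Klf2, Klf4, Klk10 and Nos3, genes that laminar flow sustains, were lower in the ligated KO artery, while the wider list of shear-responsive genes lay in both directions. Klf2, the transcription factor that flow induces, had intensities of 192, 161 and 271 in RCA and 106, 117 and 121 in LCA. All 3 ligated arteries lay below all 3 untouched ones, and the difference of -0.83 ± 0.16 ranked 6 of all genes by p. Klf4, its partner, read 425, 425 and 221 in RCA and 128, 142 and 189 in LCA, again without overlap and with a difference of -1.18 ± 0.29; its other kept probes gave -0.62 and -0.07. Klk10, a kallikrein-related secreted protein known to be induced by laminar flow, read 256, 372 and 134 in RCA and 109, 96.2 and 128 in LCA, with a difference of -1.08 ± 0.37. Its lowest RCA array lay just above the highest LCA array, so the sides separated narrowly. Nos3, the endothelial nitric oxide synthase gene, read 257, 140.2 and 119 in RCA and 105, 105 and 115 in LCA, a difference of -0.58 ± 0.25 that was -0.25 without KO RCA replicate 1, while its 3 other kept probes gave values from -0.73 to -0.59. In the list of 24 shear-responsive genes tested, 2 were higher and 4 lower at an unadjusted p under 0.05, and the median of 0.09 became -0.11 without KO LCA replicate 1, so the list as a whole has no settled direction.

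The promoters of Klf2 and Klk10 are shown because both genes were lower and both windows hold a MEF2 box, the site of the MEF2 factors through which flow is known to induce Klf2. Each run gives the 250 bases before the start site, from RefSeq on GRCm38.p6, with the box in capitals.
Klf2 (chr8:72318812-72319061, + strand): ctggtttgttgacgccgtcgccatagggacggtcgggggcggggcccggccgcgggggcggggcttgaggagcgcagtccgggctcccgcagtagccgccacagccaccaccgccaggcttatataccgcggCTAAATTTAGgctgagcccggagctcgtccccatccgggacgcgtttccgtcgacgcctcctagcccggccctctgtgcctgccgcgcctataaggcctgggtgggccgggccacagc
Klk10 (chr7:43780804-43781053, + strand): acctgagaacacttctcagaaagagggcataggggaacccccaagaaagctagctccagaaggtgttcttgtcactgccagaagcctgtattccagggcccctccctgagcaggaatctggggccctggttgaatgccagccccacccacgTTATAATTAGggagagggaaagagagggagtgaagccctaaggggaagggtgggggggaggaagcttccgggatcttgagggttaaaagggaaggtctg
The box begins 118 bases before the start site in Klf2 and 99 bases before it in Klk10. The MEF2 box was searched on both strands and occurs in 1.69% of 32851 such windows. Of the 12 lower genes named below, 10 had a promoter in the table and 2 of these held the box, Klk10 and Lims1, against 0 of 8 among the 12 higher genes. The Klf4 window held none. Among the windows of these 12 higher and 12 lower genes, the TEAD motif GGAATG (12.6% of all windows) was in Timp1 and Rab21. The AP-1 motif TGANTCA (6.75%) was in Ccser2, the CArG box (1.47%) in Rnd3, and the GC box GGGGCGGGG (10.4%) in Klf4, Uchl5 and Egfl7. Klf2 is not among these genes, and its window printed above also holds the GC box. These 5 motifs were chosen after the values were seen. A match is a description of letters and not of binding.

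Endothelial marker genes were mostly lower in LCA, while arterial genes lay in both directions. Among 22 endothelial markers, 0 were higher and 4 lower at an unadjusted p under 0.05, 17 lay below 0, and the median was -0.16 where that of all genes was -0.01; it was -0.32 with a background subtracted. Egfl7, a secreted endothelial factor, read 592, 1957 and 596 in RCA and 449, 378 and 504 in LCA, with a difference of -1.005 ± 0.42. KO RCA replicate 2 stood far above the others, and without it the difference was -0.43. Its other kept probes gave -0.83 and 0.10. Sox18, an endothelial transcription factor, read 185, 187 and 144 in RCA and 122, 137 and 135 in LCA, a difference of -0.38 ± 0.17. Flt1, a VEGF receptor, was at background in LCA and at least 1.01-fold lower there. Pecam1, the endothelial adhesion molecule CD31, overlapped, with intensities of 1487, 1004 and 937 in RCA and 3593, 849 and 937 in LCA, the highest on LCA replicate 1. The summed intensity of the 22 markers was 5618 to 6909 on the RCA arrays and 4855 to 7409 on the LCA arrays, and their mean log2 level was 7.63 to 7.85 against 7.46 to 7.54, without overlap. In RNA of mixed cells, fewer cells of a type and less RNA per cell cannot be told apart. The part that a lower share of endothelial RNA has in the lower Klf2, Klf4 and Nos3 values was therefore not tested.

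Of the arterial Notch and junction genes, Gja5, Notch1 and Hey1 were lower without overlap, Hey1 by a narrow gap. Gja5, encoding the arterial connexin 40, read 513, 393 and 270.3 in RCA and 172, 191 and 253 in LCA, with a difference of -0.90 ± 0.34, and its 3 other kept probes were all below 0, at values from -1.20 to -0.34. Notch1, the arterial Notch receptor, read 189, 455 and 181 in RCA and 119.7, 133 and 132 in LCA, a difference of -0.96 ± 0.48 or -0.53 without KO RCA replicate 2. Its target Hey1 read 131, 139 and 133 in RCA and 128, 90.9 and 112 in LCA, close to background, with a difference of -0.29 ± 0.12 or -0.16 without KO LCA replicate 2. In the Notch and arterial list of 19 genes, 0 were higher and 2 lower at an unadjusted p under 0.05. In this list 12 genes lay below 0 and 7 above, and the median of -0.03 was close to that of all genes, -0.01. Nrp1 (0.58 ± 0.31), Gja1 (0.30 ± 0.21) and Gja4 (0.24 ± 0.27) lay above 0, with overlap. Sema3f, a semaphorin that repels growing vessels, read 416, 323 and 945 in RCA and 199, 235 and 259 in LCA, a difference of -1.13 ± 0.47 that was -0.68 without KO RCA replicate 3, and its other kept probes gave -1.19 and -0.23. Ace, the angiotensin-converting enzyme of the endothelial surface, read 321, 1029 and 293 in RCA and 229, 293 and 199.8 in LCA, which overlapped between sides and gave -0.37 without KO RCA replicate 2, against -0.95 ± 0.43 with it; its other kept probes gave -0.86 and -0.02. Tinagl1, a basement membrane protein, read 341, 474 and 424 in RCA and 339, 312 and 279.8 in LCA, a difference of -0.40 ± 0.15, and Lims1, encoding the integrin adaptor PINCH, read 381, 168 and 175 in RCA and 91.0, 90.1 and 116 in LCA, a difference of -1.19 ± 0.28. The other kept probe of Lims1 gave only -0.05, and that of Tinagl1 -0.30. Of 17 vasoactive and coagulation genes tested, 0 were higher and 1 lower at this level, and 13 lay below 0. Of 14 basement membrane genes, 0 were higher and 1 lower.

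Other endothelial genes were higher in LCA. Lmo4, a LIM-only transcriptional adaptor known to be induced by disturbed flow, read 266, 245 and 333 in RCA and 1425, 534 and 779 in LCA, the largest difference among named genes at 1.59 ± 0.35. Every LCA array lay above every RCA array, although its other kept probe gave only 0.26. Edn1, the precursor of the vasoconstrictor endothelin-1, read 497, 374 and 508 in RCA and 866, 892 and 548 in LCA, a difference of 0.72 ± 0.41. Angpt2, an antagonist of TIE2 signalling released by activated endothelium, read 96.6, 112 and 141 in RCA and 183, 160.5 and 127 in LCA, with 1 RCA array above the lowest LCA array and a difference of 0.43 ± 0.15; its other kept probe gave 0.17. Esm1, an endothelial tip cell proteoglycan, read 97.8, 101 and 117 in RCA and 291, 131 and 151 in LCA, a difference of 0.77 ± 0.24 or 0.42 without KO LCA replicate 1. In the sprouting and VEGF list of 18 genes, 2 were higher and 1 lower at an unadjusted p under 0.05.

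**Figure D2:**
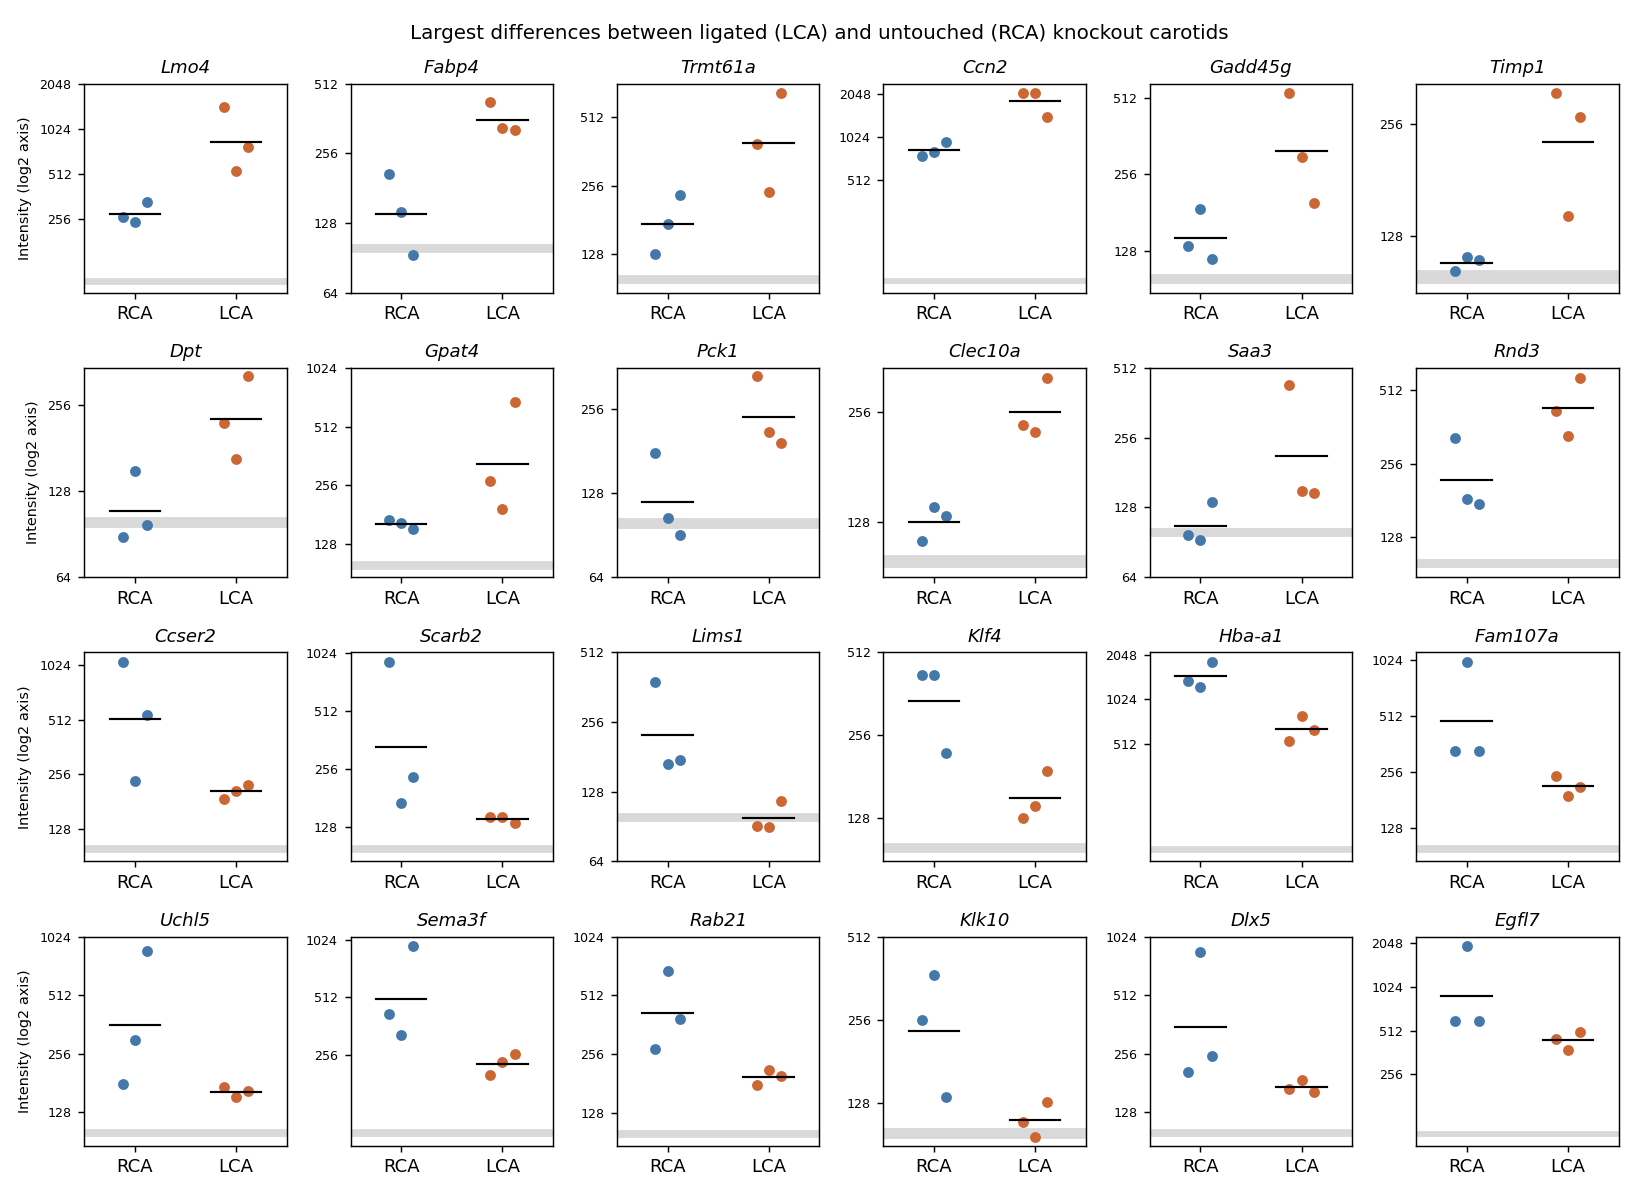
Intensity on each knockout array (vertical axis, log2 scale) for RCA and LCA (horizontal axis) of the 12 genes with the largest higher values (upper 12 panels) and lower values (lower 12 panels); lines are the means of log2 values and the grey band is the receptor level of 95.7 to 103. In every panel the 3 LCA arrays lie on 1 side of the 3 RCA arrays, and in several lower genes, such as Scarb2 and Egfl7, 1 RCA array lies far above the other two.

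Among matricellular genes and targets of TGF-beta, several were higher in the ligated artery. Ccn2, encoding connective tissue growth factor, read 756, 797 and 943 in RCA and 2083, 2083 and 1419 in LCA. All LCA arrays were above all RCA arrays, with a difference of 1.15 ± 0.30, and its other kept probe gave 1.02. Pmepa1, a feedback inhibitor of TGF-beta signalling, read 98.9, 94.98 and 107 in RCA and 121, 119.9 and 113 in LCA, a small difference of 0.24 ± 0.08, with 0.15 from its other kept probe. Among the 22 TGF-beta responsive genes tested, 4 were higher and 0 lower at an unadjusted p under 0.05, 19 lay above 0, and the median was 0.13, or 0.44 with a background subtracted. The 4 were Ccn2, Pmepa1, Col1a1 and Col1a2, and the list shares these collagens with the interstitial matrix list.

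Proteases and their inhibitors lay in both directions. Timp1, the inducible inhibitor of metalloproteinases, read 103, 112 and 110.4 in RCA and 311, 145 and 268 in LCA, a difference of 1.08 ± 0.25, and its other kept probe gave 1.26. The RCA values lay close to the receptor level and all LCA values above them. Timp4, the inhibitor typical of heart and vessel, read 123, 123 and 121 in RCA and 93.5, 91.5 and 105 in LCA, and its difference of -0.34 ± 0.06 ranked 5 of all genes by p. Mmp3, stromelysin, was at background in RCA and at least 1.202-fold higher in LCA, but its other kept probes gave differences of only 0.02 and 0.10. Plaur, the urokinase receptor gene, read 134, 141 and 139 in RCA and 161, 189 and 161 in LCA, a difference of 0.30 ± 0.11. Of 18 genes in this list, 3 were higher and 1 lower at an unadjusted p under 0.05.

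Several fibroblast and interstitial matrix genes were higher in LCA, many of them from values near the receptor level in RCA, while Pi16 and Clec3b were not. Dpt, encoding dermatopontin, read 87.9, 150.3 and 97.2 in RCA and 221, 165 and 322 in LCA, a difference of 1.06 ± 0.26. Dcn, the small proteoglycan decorin, read 106, 278 and 107 in RCA and 604, 231 and 373 in LCA, with KO RCA replicate 2 above the lowest LCA array; its difference was 1.35 ± 0.43 and its other kept probe gave 1.03. Cygb, cytoglobin, a marker of perivascular fibroblasts, read 103, 115 and 98.8 in RCA and 208, 138 and 163 in LCA, a difference of 0.66 ± 0.17. Of the collagen I chains, Col1a2 read 106, 119 and 97.1 in RCA and 136, 197 and 130.3 in LCA, a difference of 0.51 ± 0.17, and Col1a1 read 109, 105 and 113 in RCA and 118, 126 and 167 in LCA, a difference of 0.31 ± 0.14. Without the highest LCA array these were 0.32 (Col1a2, replicate 2 left out) and 0.16 (Col1a1, replicate 3 left out). Ogn, osteoglycin, was at background in RCA and at least 1.04-fold higher, with -0.02 from its other kept probe. Col15a1, a collagen of the basement membrane zone, was at background in RCA with values of 88.0, 93.2 and 89.3 there and 95.2, 107 and 97.7 in LCA, a difference of 0.15 ± 0.06 or 0.10 without KO LCA replicate 2. Of 17 fibroblast markers, 4 were higher and 0 lower at an unadjusted p under 0.05, with a median of 0.14 (0.58 with a background subtracted); of 22 interstitial matrix genes, 5 were higher and 0 lower, with a median of 0.13 (0.49). The LCA arrays were not uniform. The summed intensity of the fibroblast markers was 3155 and 3236 on LCA replicates 1 and 3 but 2444 on replicate 2, below the 2462 to 2736 of the RCA arrays. Pi16, an adventitial progenitor marker, had lower values in most LCA arrays (449.8, 462 and 762 in RCA and 265, 245 and 491 in LCA). Clec3b read 238, 292 and 126 in RCA and 227, 156 and 191 in LCA, with overlap. Of the 6 fibroblast markers checked above, only Pi16, Clec3b and Dcn exceeded the receptor level on all 6 arrays.

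Fibulin-5 loss leaves other elastic fibre genes to be read. Fbln1, its relative fibulin-1, read 133, 136 and 108 in RCA and 164, 183 and 320.0 in LCA, a difference of 0.77 ± 0.24 or 0.48 without KO LCA replicate 3, but its 2 other kept probes gave 0.04 and 0.11. Mfap4, a microfibril protein that binds elastin, was at background in RCA and at least 1.16-fold higher in LCA, with no overlap. Fblim1, an actin-linked adhesion protein kept in this list, read 300.3, 253 and 328 in RCA and 689, 457 and 461 in LCA, a difference of 0.85 ± 0.31. Of 17 genes in this list, 3 were higher and 0 lower at an unadjusted p under 0.05, the 3 being Fbln1, Mfap4 and the adhesion gene Fblim1. The list's median was 0.08 against a mean of 0.04, and the median was 0.34 with a background subtracted.

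Several contractile genes of smooth muscle were higher in LCA, while Cnn1 was lower and Myh11 and Tagln overlapped, all 3 close to background. Acta2, smooth muscle actin, read 542, 572 and 702 in RCA and 819.7, 1007 and 726 in LCA, a difference of 0.49 ± 0.18, and its 5 other kept probes gave values from 0.07 to 0.60. Tpm1, a tropomyosin, read 374, 539 and 510.5 in RCA and 573, 768 and 989 in LCA, a difference of 0.69 ± 0.25, with 0.02 and 0.73 from its other kept probes. Npnt, an integrin ligand of the matrix, read 105, 109.5 and 103 in RCA and 141, 121 and 111 in LCA, a difference of 0.22 ± 0.10, and Cnn2, calponin 2, was at background in RCA and at least 1.06-fold higher, with overlap. Without KO LCA replicate 1 the differences of Npnt and Cnn2 were 0.13 and 0.08, and their other kept probes gave 0.12 and 0.21. Cnn1 read 97.9, 99.3 and 98.2 in RCA and 96.9, 90.3 and 93.4 in LCA. Myh11 read 107, 103 and 98.3 in RCA and 98.8, 88.1 and 118 in LCA. Of 23 contractile genes, 4 were higher and 0 lower at an unadjusted p under 0.05. Without overlap 5 were higher and 2 lower, where the shares of all genes were 8.43% and 11.4%. In the list 17 genes lay above 0, and the median was 0.16, or 0.45 with a background subtracted. The summed intensity of the 23 genes was 4519.8 to 4939.6 in RCA and 5739 to 7381 in LCA, without overlap.

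**Figure D3:**
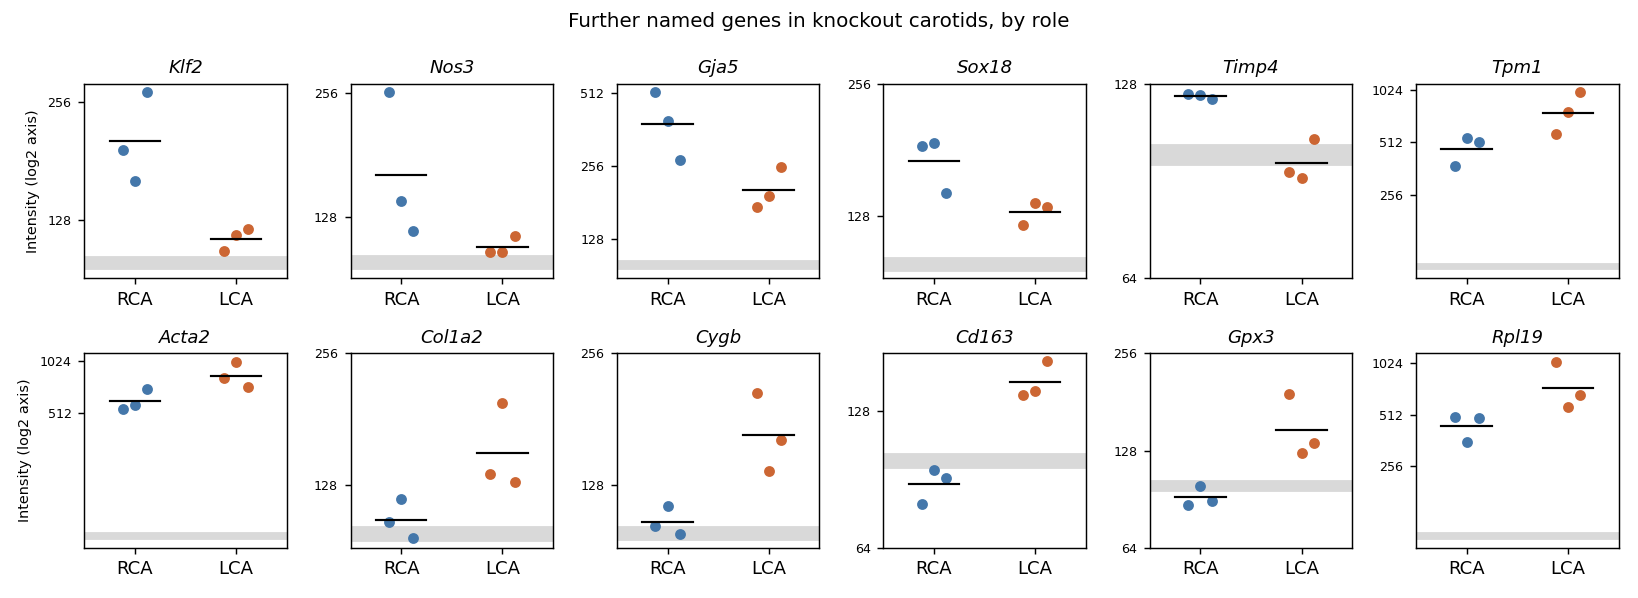
Intensity on each knockout array (vertical axis, log2 scale) for RCA and LCA (horizontal axis) of 12 further genes ordered by role, from flow and endothelial genes to stromal, macrophage, antioxidant and ribosomal genes; lines are the means of log2 values and the grey band is the receptor level of 95.7 to 103. Klf2, Nos3, Gja5, Sox18 and Timp4 were lower on all 3 LCA arrays, and the other 7 genes higher, without overlap.

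Lipid genes were higher in LCA although the defining adipocyte markers were dim. Fabp4, a fatty acid carrier of adipocytes, microvascular endothelium and macrophages, read 207, 143 and 93.4 in RCA and 427, 329 and 323 in LCA, a difference of 1.34 ± 0.41. Pck1, which makes phosphoenolpyruvate for glyceride synthesis in fat, read 178, 104 and 90.5 in RCA and 337, 212 and 194 in LCA, a difference of 1.02 ± 0.26, and its other kept probe gave 0.83. Lpl, lipoprotein lipase, was at background in RCA and at least 1.41-fold higher in LCA, with overlapping values of 89.6, 84.0 and 90.4 in RCA and 167, 90.0 and 195 in LCA, but its other kept probe gave a difference of only 0.02. Dio2, which activates thyroid hormone, was at least 1.17-fold higher and ranked 3 of all genes by p, and Adig, a small protein of lipid droplets, at least 1.07-fold higher, its difference of 0.28 ± 0.10 being 0.15 without KO LCA replicate 1. Of 19 adipocyte genes, 5 were higher and 0 lower at an unadjusted p under 0.05, with a median of 0.12 (0.34 with a background subtracted) and summed intensities of 1829.5 to 2063 in RCA and 2237 to 2693 in LCA. Plin1 was at background on all 6 arrays and Adipoq exceeded the receptor level on 2 LCA arrays, so the part of adherent fat in these values was not tested. Gpat4, an enzyme of glycerolipid synthesis outside the list, read 169.6, 165 and 153 in RCA and 269.9, 194 and 683 in LCA, a difference of 1.02 ± 0.38 that was 0.49 without KO LCA replicate 3, and its other kept probes gave -0.07 and 0.09.

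The macrophage gene Cd163 gave the smallest p of the comparison, while the macrophage markers Csf1r and Adgre1 were not higher. Cd163, the haemoglobin scavenger receptor of resident macrophages, read 79.7, 94.8 and 91.0 in RCA and 139, 141 and 165 in LCA, at background in RCA and at least 1.46-fold higher in LCA. Clec10a, a lectin of macrophages and dendritic cells, read 113, 140.1 and 133 in RCA and 235, 226 and 319 in LCA, a difference of 1.00 ± 0.26. The fractalkine receptor gene Cx3cr1 and F13a1, factor XIII, were at background in RCA, with LCA values of 103, 102 and 91.3 and of 100.1, 90.8 and 111. Of 22 macrophage and dendritic cell markers, 3 were higher and 0 lower at an unadjusted p under 0.05, and the median was 0.09, or 0.36 with a background subtracted. The defining markers Csf1r, Adgre1, C1qa and Mrc1 were at or near background. Csf1r was lower on every LCA array, at 94.4, 97.1 and 97.1 in RCA and 86.7, 89.9 and 91.4 in LCA. Adgre1 read 103, 95.7 and 94.3 in RCA and 86.4, 91.8 and 98.3 in LCA, with overlap. The summed intensity of the list overlapped between sides, at 2104 to 2552 in RCA and 2248 to 3265 in LCA. Ccl9, a chemokine of myeloid cells, was at background in RCA and at least 1.38-fold higher. Saa3, an acute phase serum amyloid, read 97.1, 92.2 and 134 in RCA and 433, 151 and 147 in LCA, a difference of 1.00 ± 0.36 that was 0.49 without KO LCA replicate 1. Of 19 chemokines and cytokines tested, 1 was higher and 0 lower, the others named by the rule being Ccl19 (0.14 ± 0.06) and Cxcl13 (0.29 ± 0.16, or 0.09 without KO LCA replicate 1). Neutrophil genes (0 higher and 1 lower of 16), lymphocyte markers (0 of 7) and interferon-stimulated genes (0 of 20, led by Ifit2 at 0.27 ± 0.16, or 0.07 without KO LCA replicate 1, and Gbp3 at 0.19 ± 0.11, whose other kept probe gave 0.03) held few or no such genes.

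Blood genes lay in both directions. Hba-a1, alpha globin, read 1362, 1244 and 1830.1 in RCA and 535, 794 and 636 in LCA, lower in every LCA array with a difference of -1.17 ± 0.39. Beta globin, Hbb-bt, overlapped, at 528, 1830.1 and 3101 in RCA and 668, 1830.1 and 1480.3 in LCA. Slc4a1, the erythrocyte anion exchanger, read 94.8, 138 and 124 in RCA and 84.3, 95.2 and 97.7 in LCA, a difference of -0.35 ± 0.12. Pf4, a platelet chemokine also made by some macrophages, read 93.0, 97.9 and 106 in RCA and 178, 95.7 and 190.2 in LCA, a difference of 0.58 ± 0.21 that passed with 0.90 and adjusted p = 0.0112 in limma when KO LCA replicate 2 was left out. The summed intensity of the 11 genes spanned 3334 to 11344 in RCA and 2986 to 5792 in LCA, and their median of -0.35 went from -0.88 to 0.09 as single KO arrays were left out, turning positive without RCA replicate 3 or LCA replicate 1.

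Genes of protein synthesis were more often higher in LCA. Of 34 cytosolic ribosomal proteins, 4 were higher and 0 lower at an unadjusted p under 0.05, 29 lay above 0 and the median was 0.22, or 0.34 with a background subtracted. Rpl19 read 497, 356 and 489.6 in RCA and 1041, 569.7 and 668 in LCA, a difference of 0.73 ± 0.29; Rps24 differed by 0.69 ± 0.25, with 0.05 and 0.16 from its other kept probes, Rps25 by 0.67 ± 0.28 and Rpl3 by 0.66 ± 0.28. Rpl19 was 0.48 without KO LCA replicate 1, and Rpl3 0.31 without replicate 2 and 1.03 without replicate 1. Near-identical pseudogene copies make single ribosomal genes uncertain. Cox4i1, a subunit of cytochrome oxidase, read 279.8, 299 and 247 in RCA and 722, 405 and 337 in LCA, a difference of 0.75 ± 0.33 or 0.43 without KO LCA replicate 1, and Cycs, cytochrome c, differed by 0.27 ± 0.11, with its other probes at -0.19 and -0.03; these 2 were the only ones of 31 oxidative phosphorylation genes at this level. The glycolytic genes Tpi1 (0.93 ± 0.39, with overlap) and Pfkp (0.28 ± 0.10, without) were higher, 2 of 18 in their list. Tpi1 was 0.50 without KO LCA replicate 2, with 0.04 and 0.50 from its other kept probes, and those of Pfkp gave 0.13 and 0.27. Hsp90aa1, an inducible chaperone, read 305, 282 and 472 in RCA and 518, 1076 and 488 in LCA, a difference of 0.92 ± 0.34 or 0.55 without KO LCA replicate 2, against 0.04 and 0.15 from its other probes, and Trib3, a stress-induced pseudokinase, had a difference of -0.32 ± 0.11 or -0.20 without KO RCA replicate 1, with -0.06 from its other kept probe. Gpx3, a secreted glutathione peroxidase, read 87.0, 99.4 and 89.4 in RCA and 191, 125 and 135 in LCA, a difference of 0.69 ± 0.15, and Hmox1, haem oxygenase, was at background in RCA and at least 1.06-fold higher, with overlap and a difference of 0.21 ± 0.08 that was 0.13 without KO LCA replicate 1; 2 of 20 antioxidant genes were higher and 0 lower.

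Early response and growth genes showed little, and clock genes mostly lay below 0. Egr2, an immediate early factor, was at background in RCA and at least 1.15-fold higher in LCA, and 2 of 24 immediate early genes were higher and 1 lower at an unadjusted p under 0.05, the second higher gene being Ccn2. Gadd45g, a growth arrest gene, read 133, 187 and 119 in RCA and 533, 299.6 and 197 in LCA, a difference of 1.13 ± 0.32 or 0.75 without KO LCA replicate 1, while its other probe gave 0.15. Trmt61a, a tRNA methyltransferase, read 128, 174 and 234 in RCA and 392, 241 and 652 in LCA, a difference of 1.18 ± 0.33. Cdk1, the mitotic kinase, read 157, 156 and 148 in RCA and 121, 141 and 118 in LCA, a difference of -0.29 ± 0.11 with -0.08 and -0.07 from its other kept probes, and 0 of 23 proliferation genes were higher and 1 lower. Per2, a clock repressor, read 109.7, 125 and 257 in RCA and 92.1, 103 and 105 in LCA, a difference of -0.61 ± 0.28. It was -0.23 without KO RCA replicate 3, and its other kept probes gave -0.51 and -0.18. Bhlhe40 differed by -0.44 ± 0.20, with overlap. Of 14 clock genes 12 lay below 0, with a median of -0.09, or -0.20 with a background subtracted, but 0 had an unadjusted p under 0.05. Cholesterol synthesis genes (0 of 10), Schwann cell and neuron markers (0 of 12) and skeletal muscle markers (0 of 12) held none at this level, and thyroid and epithelial markers 1 of 8, lower.

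**Figure D4:**
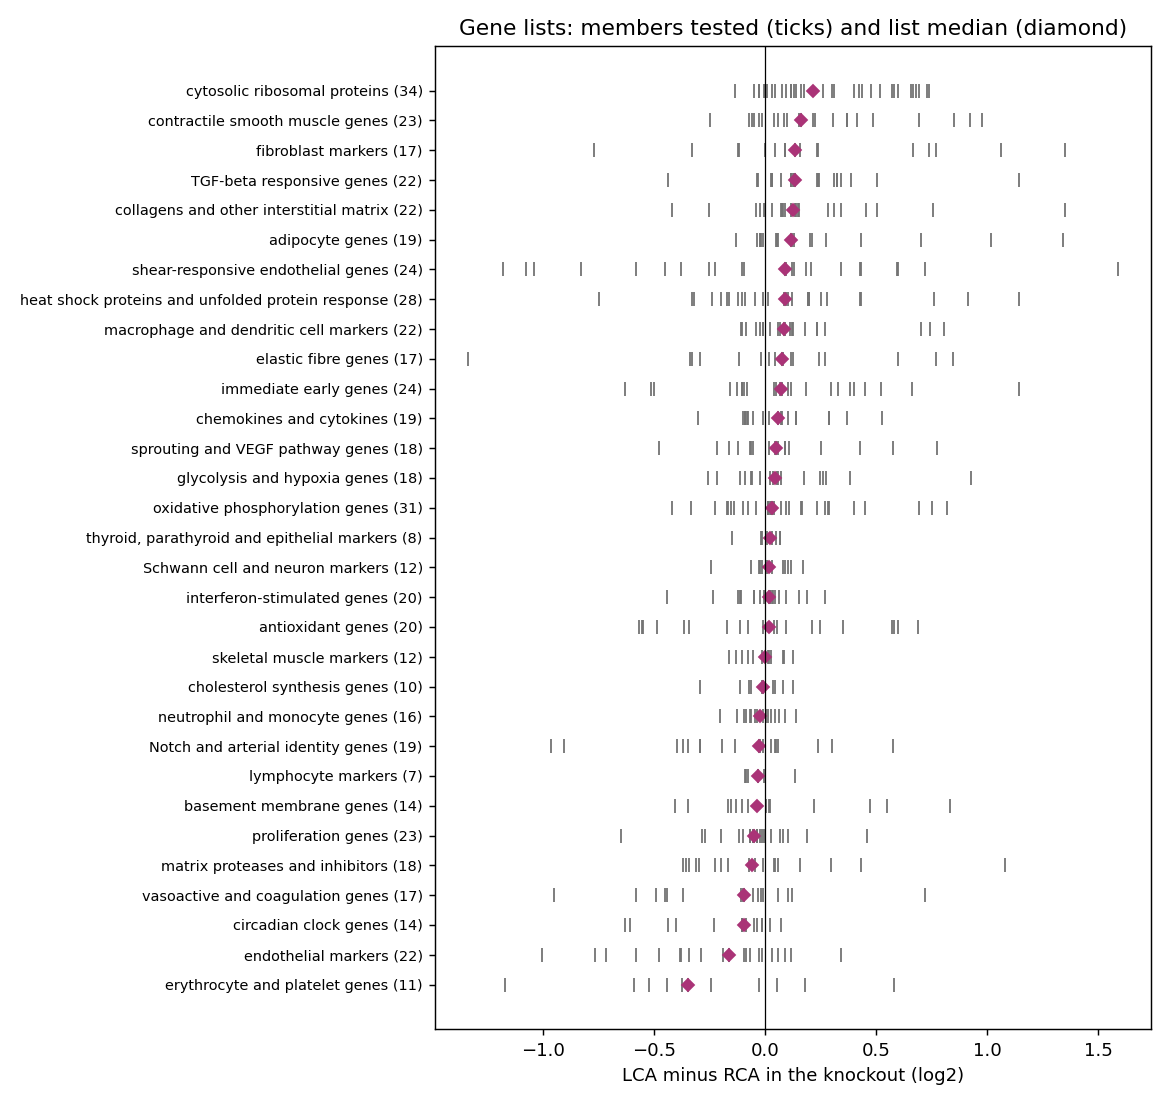
Log2 difference between LCA and RCA (horizontal axis) of every tested member (ticks) of the 31 gene lists (vertical axis, number tested in brackets), with the list median as a diamond. Medians ran from -0.35 for erythrocyte and platelet genes to 0.22 for cytosolic ribosomal proteins, and 4 of 22 endothelial markers and 0 of 22 TGF-beta responsive genes were lower at an unadjusted p under 0.05.

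Several of the largest lower values rested on 1 RCA array. Ccser2 read 1071, 235 and 546 in RCA and 188, 208 and 224 in LCA, a difference of -1.32 ± 0.46 that was -0.80 without KO RCA replicate 1, and its 3 other kept probes gave values from -0.68 to 0.13. Scarb2, a lysosomal membrane receptor, read 922, 172 and 233 in RCA and 145, 145 and 135 in LCA, and went from -1.24 ± 0.50 to -0.50 without the same array, with -0.14 from its other kept probe. Uchl5, a proteasome deubiquitinase, read 178, 301 and 865 in RCA and 172, 153 and 164 in LCA, a difference of -1.14 ± 0.45 or -0.51 without KO RCA replicate 3, and its 3 other probes gave values from 0.01 to 0.13. A further 3 genes were highest on KO RCA replicate 2: Fam107a (332, 998 and 331 in RCA and 243, 189.9 and 214 in LCA), Rab21, an endosomal GTPase (272, 684 and 389 in RCA and 177, 213 and 197 in LCA), and the homeobox gene Dlx5 (205, 852 and 248 in RCA and 168, 187 and 162 in LCA). Their differences of -1.16 ± 0.41, -1.10 ± 0.37 and -1.03 ± 0.43 became -0.63, -0.74 and -0.39 without it, and the other kept probe of Dlx5 gave -0.10. Among the 1762 genes lower without overlap, the highest RCA array was more than 2 times the next in 21 genes on replicate 1, 29 on replicate 2 and 18 on replicate 3. Among the 1298 higher genes this held for 5, 2 and 8 genes on LCA replicates 1, 2 and 3.

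A second probe gave a reading of the same gene on the same arrays. Another kept probe existed for 365 of the 1066 genes with an unadjusted p under 0.05, and for 208 of them (57%) all other probes had the same sign, against 42.7% of the 6047 other genes with more than 1 kept probe. Another probe that separated the sides in the direction of the main probe's difference was found for 89 (24.4%) and 17.2%. The main probe itself did not have to separate them. The following covers genes named as list members or among the 12 largest per direction, at an unadjusted p under 0.05. Above 0, the main probe and another both separated the sides for Lmo4, Ccn2, Timp1, Pck1, Tpm1, Acta2, Npnt, Pmepa1, Pfkp and Hsp90aa1. Below 0 these were Gja5, Nos3, Sema3f, Egfl7 and Ccser2, although Egfl7 and Ccser2 each also had a kept probe of the opposite sign. Klf2, Klk10, Fabp4, Dpt and Cd163 had no other kept probe.

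The same contrast in WT arteries was set beside the KO values; there 1068 genes (6.94%) had an unadjusted p under 0.05 and 1718 (11.2%) did not overlap. In these data no gene differed between the genotypes by the test of the interaction in limma: 0 of 15395 (0%) had an adjusted p under 0.05, and 546 (3.55%) an unadjusted p under 0.05. Klf2 differed by -0.87 ± 0.16 in WT and -0.83 ± 0.16 in KO, Klf4 by -1.59 ± 0.29 and -1.18 ± 0.29, and Egfl7 by -1.01 ± 0.42 and -1.005 ± 0.42. Klk10 was lower by a larger amount in WT, -2.11 ± 0.37, with an interaction of 1.03 ± 0.52. Ccn2 was also larger in WT at 1.81 ± 0.30, an interaction of -0.67 ± 0.43, while Lmo4 was 1.16 ± 0.35. The WT values lay near 0 for Timp1 (-0.04 ± 0.25), Fabp4 (-0.15 ± 0.41), Pck1 (-0.11 ± 0.26), Dpt (0.14 ± 0.26), Cd163 (-0.09 ± 0.11) and Gpx3 (-0.01 ± 0.15). Their interactions were 1.12 ± 0.36, 1.49 ± 0.58, 1.12 ± 0.36, 0.93 ± 0.36, 0.83 ± 0.16 and 0.70 ± 0.21, each with adjusted p = 0.905 in limma. These genes were named for their KO values, and all but Fabp4 had WT means within or under the WT receptor levels of 96.5 to 126. The WT means in RCA and LCA were 94.4 and 88.6 for Cd163, 93.9 and 93.0 for Gpx3, and 98.8 and 91.6 for Pck1, against 209 and 193 for Fabp4. Differences near that level are compressed by background. Of the 12 largest higher genes 8 had the same sign in WT, with a median of 0.20 against 1.07 in KO, and of the 12 largest lower genes 10, with a median of -0.34 against -1.15; these genes were chosen for their KO values, so no test is drawn from this. Of the 15395 genes, 187 were lower and 109 higher without overlap in both genotypes, and 62 separated in opposite ways. Taken alone, 19.9% of genes in KO and 11.2% in WT did not overlap, so some genes coincide without a shared response. The number to be expected was not tested, and these counts are not read as a result. Among those separating the same way were Klf2, Klf4, Klk10, Nos3, Egfl7, Sema3f and Timp4 below and Lmo4, Ccn2 and Saa3 above. Without WT LCA replicate 3, whose correlation with the other arrays was lowest at a median r of 0.637, 3 genes passed the interaction: Tgif1 (-1.72), Sh3glb2 (-1.19) and Cyb561d1 (-0.80), with adjusted p from 0.0208 to 0.0309. In KO arteries these 3 were near background on all 6 arrays, with differences of -0.12 ± 0.38, 0.04 ± 0.29 and 0.00 ± 0.21.

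**Figure D5:**
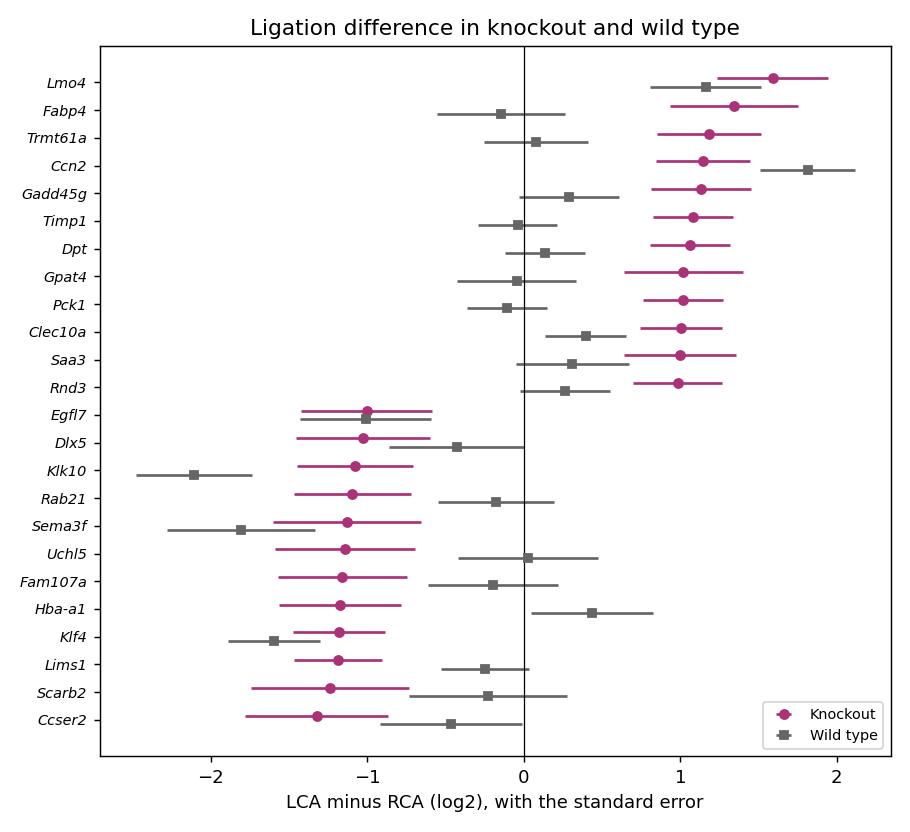
Log2 difference between LCA and RCA with its standard error (horizontal axis) in knockout (circles) and wild type (squares) for the 24 genes with the largest KO values (vertical axis). Klf4, Klk10, Sema3f, Egfl7, Lmo4 and Ccn2 lay on the same side of 0 in both genotypes by more than 1 SE, while Timp1, Pck1 and Trmt61a lay within 1 SE of 0 in wild type.

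Leaving out single KO arrays brought a few genes past the threshold. Without KO LCA replicate 2, 6 genes passed in limma, all higher: Supt4a (1.53), Cldn11 (1.45), Timp1 (1.41), Ifi27l2a (1.38), Pitpna (1.15) and Pf4 (0.90), with adjusted p from 0.0112 to 0.0432. For Cldn11, a tight junction claudin, the LCA values were 325, 94.02 and 221 and the RCA values 95.05, 104 and 95.8, so LCA replicate 2 lay within or below the RCA range. In Ifi27l2a, an interferon-inducible gene, LCA replicate 2 was also the lowest LCA array, with 297, 102 and 213 in LCA and 107, 92.1 and 93.0 in RCA. Without KO RCA replicate 3, Sppl2a, an intramembrane protease gene, passed alone at -1.19 with adjusted p = 0.00341; its RCA values were 225, 214 and 105 and its LCA values 92.2, 93.2 and 103.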

How the data were processed

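One-colour Illumina arrays measured RNA of carotid arteries. The sample titles name the artery and not the part of its wall. The deposited intensity values, on a linear scale, came in the submitters' value table; how they were normalized is not given in these sources. Columns were matched to samples by title, and genes named through the platform annotation: 34885 of 45281 probes had 1 symbol. A probe was kept if at or above the median of the array on 3 or more arrays, and the brightest kept probe stood for its gene, giving 15395 genes. Log2 values of all 12 arrays were fitted in limma 3.58.1 (R 4.3.3) with 4 group means, and p-values adjusted by Benjamini-Hochberg over all genes. The script was tested on simulated data. A gene at background on 1 side has a lower bound, the bright side's mean over the receptor level or the dim side's own value. Members and gene lists were chosen with earlier results of these data known. Named genes were the 12 largest per direction among genes at an unadjusted p under 0.05 without overlap, plus the leading 3 members of each list and all members at that p, except those at background on both sides. The number of arrays, 3 per group, limits the precision. Alternatives covered the filter, probe choice, scaling, background, array weights, blocks and each array left out. Whether replicate numbers pair the arteries is not known, so they were not used as a block except as an alternative. 1 result is not reported here.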

Additional observations from a re-analysis of the deposited data

Results flagged for a closer look

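For 2 named genes all 3 LCA arrays lay on one side of all 3 RCA arrays in KO and on the other side in WT. Col1a2, a collagen I chain, was 0.51 ± 0.17 in KO and -0.40 ± 0.17 in WT, an interaction of 0.90 ± 0.24. Ncam1, a neural adhesion molecule also found on other stromal cells, was 0.17 ± 0.17 in KO and -0.44 ± 0.17 in WT, an interaction of 0.61 ± 0.24, and its other kept probes gave -0.35 and -0.33 in KO, the opposite sign. After adjustment neither interaction passed in limma (adjusted p = 0.905 and 0.905), and 62 of all 15395 genes tested separated in opposite ways in the 2 genotypes.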

How the results depend on the processing

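The call of 0 genes held under all alternatives that kept every KO array; leaving out 1 KO array gave 0 to 6 genes, named in the report. The count of 1066 genes at an unadjusted p under 0.05 became 1818 with array weights and 445 with a filter at the receptor level. The count of 3060 genes without overlap became 1634 with that filter, and 4337 to 4904 with 1 KO array left out, where fewer values have to separate. The interaction gave 3 genes without WT LCA replicate 3. With the replicate number as a fixed block 0 genes passed and 976 had an unadjusted p under 0.05; as a random block 0 and 1193, with a consensus correlation of 0.064, and the block changed no call. Deviations of same-numbered arrays correlated with r of -0.0129, -0.0021 and 0.0422 in KO and 0.0385, 0.0523 and 0.0741 in WT; in WT every number, and in KO replicate 3 alone, correlated best with its own number, which leaves pairing unsettled. Background subtraction moved the median of all genes to 0.06 and 19 of 31 list medians by more than the spread between replicates, the fibroblast median from 0.14 to 0.58. Of 1290 values of named genes under the other settings 1287 kept their direction and call and 3 reversed: Ncam1 was -0.17 with the mean of its probes and -0.35 with the probe brightest in KO, and Lss was -0.045 with the mean of its probes. With single KO arrays left out 597 of 600 kept both, Timp1 (1.41) and Pf4 (0.90) passed, and Cd2, -0.088 with all arrays, ranged from -0.19 to 0.019, reversing without KO RCA replicate 1. The cause of these differences was not tested. Genes near the receptor level have differences compressed by background.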

Other observations

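Probes without a single gene symbol gave a like picture: of 6810 tested, 0 passed in limma, the smallest adjusted p was 0.591, and 548 (8.05%) had an unadjusted p under 0.05.

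Among genes in none of the lists at an unadjusted p under 0.05, many had at least 2 probes that separated the arteries the same way without overlap. Such genes were lower as well as higher in LCA. Those named here were chosen after their values were seen, and most of them lay above 0. Higher in LCA were Serping1, the C1 inhibitor of complement (0.49 ± 0.17), Ctsz, a lysosomal cathepsin (0.73 ± 0.22), Psmd8, a proteasome subunit (0.43 ± 0.16), Cope, a coat protein of Golgi vesicles (0.48 ± 0.13), and Etfb, a mitochondrial electron carrier subunit (0.49 ± 0.18). The sphingosine 1-phosphate receptor gene S1pr2 differed by 0.78 ± 0.27, and Srgn, the proteoglycan serglycin of blood and endothelial cells, by -0.89 ± 0.32. The lowest of the other kept probes gave only 0.04 for S1pr2 and 0.09 for Cope. None passed after adjustment in limma.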
